A study of Schizosaccharomyces pombe with 2 samples.

Results

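Amino acid permease genes were compared between a fission yeast (Schizosaccharomyces pombe) strain labelled Tup11,12D and a wild-type strain on 2 spotted 2-colour arrays. The members were chosen by name from a list of 8 genes, and 7 of the 8 names were found among 4951 gene features. The 7 features are isp5, SPBPB2B2.01 (nrg1 in the gene table), SPAP7G5.06 (per1), SPAC869.10c (put4), SPBC359.03c (aat1), SPBC359.01 and SPCC777.04 (dip5). The name SPAC869.11 (cat1) was not found, but the gene table lists SPAC922.08c as another name of cat1. The feature of that name was read separately and is not counted among the members. The members were put together with the mutant and wild-type values already known, so the values of those strains describe the members and no test is drawn from them.

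The strain labelled Tup11,12D is called the mutant here. As the D of its label is read, it lacks both tup11 and tup12, which encode related corepressors, but the tup11 signal given below goes against that reading. Both strains grew to logarithmic phase in rich medium, per the series design text, and a growth temperature of 30 degrees is given for the mutant of array 1. Mutant RNA was labelled with Cy3 on array 1 and with Cy5 on array 2, and wild-type RNA with the other dye, according to the labels. RNA was prepared independently for each array, per the design text, so n = 2 in every comparison. The p-values rest mostly on spread pooled over features, and only in part on the spread of a feature between these preparations. Dye and preparation changed together between the arrays.

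Amino acid permeases are membrane proteins that carry amino acids into the cell together with protons. In yeasts their genes and their place on the plasma membrane respond to the quality of the nitrogen source, and several are low or held inside the cell when ammonium or another good source is present. Corepressors of the Tup family bind no DNA themselves and are brought to promoters by sequence-specific repressors.

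The first channel of each array was read as the mutant; the headers do not state this, and each sign below turns under the opposite reading. Its mean local background was 1.80 on array 1 and 753 on array 2, against 408 and 12.5 in the second channel, so the dyes had changed places between the columns. The median gene spot was at 1337 in the first channel and 3850 in the second channel of array 1, and at 1851 and 1343 on array 2. Raw signals of the strains are therefore not comparable before normalisation, and the strain values below are normalised signals on a log2 scale. Between 61.1% and 70.3% of features were well above background in a channel, meaning that every spot of the feature lay above the 95th percentile of 96 bacterial control spots, aceF and kdtA, in that channel. A feature named tup1, which matched no gene of the table, stood at -2.11 ± 0.36 (SD, n = 2, limma adjusted p = 0.000284) and tup11 at 0.42 ± 0.75 (adjusted p = 0.48). The tup11 feature was not lower in the channel read as the mutant. Its log2 ratio was 0.95 on array 1, with normalised signals of 12.00 against 11.05 in the wild type, and -0.11 on array 2. No source used here says whether this feature lies inside the deleted part. The tup1 feature remained well above background in the mutant on 1 array, and no feature was found under the name tup12. The deletions were therefore not verified, and each direction below rests on the labels and on the reading of the channels.

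Of the 7 permease features, 4 were higher in the mutant past the threshold of the fit over all features, 0 were lower and 3 did not pass. Over all 4808 features tested, 3.47% passed in either direction, 2.43% higher and 1.04% lower. The 4 features were SPBPB2B2.01, per1, put4 and isp5. The median log2 ratio of the 7 was 1.01, against 0.01 over all features. On both arrays 5 members were above 0, as were 30.1% of all features, and 2 members were at least 2-fold higher on both, as were 1.52% of all features. The 3 features that did not pass also had an unadjusted p above 0.05. No member had a saturated spot or a spot of quality code 3. No source used here explains the quality codes.

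**Figure D1:**
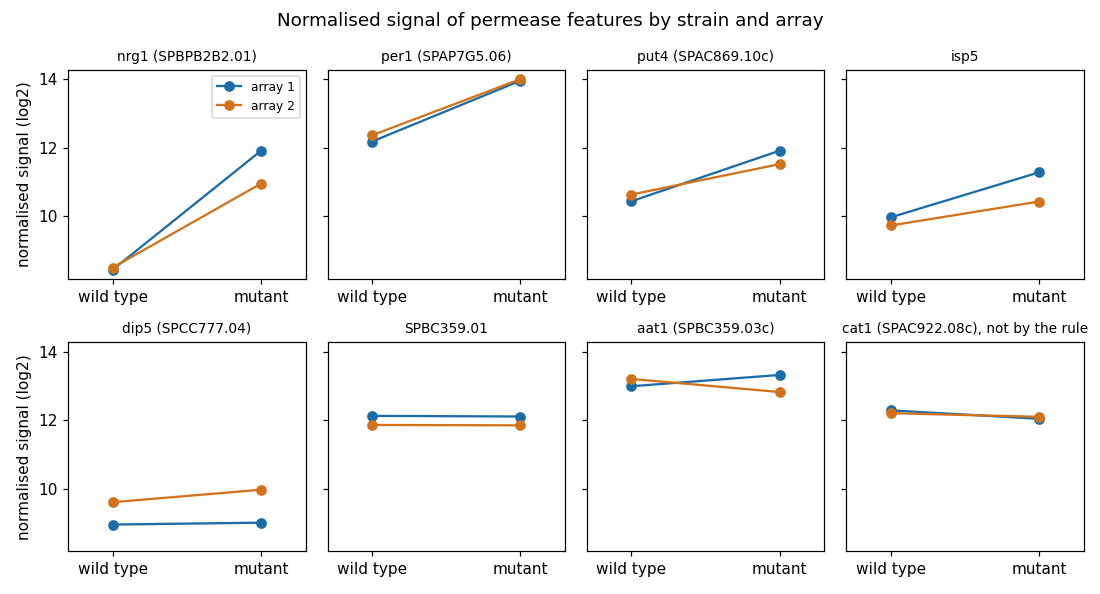
Normalised signal (log2, vertical axis) of each permease feature in the wild type and the mutant, with 1 line for each array. In SPBPB2B2.01, per1, put4 and isp5 both lines climb towards the mutant, and in aat1 the lines cross.

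SPBPB2B2.01 had the highest fitted mean log ratio of the members. Its normalised signal was 8.45 in the wild type and 11.92 in the mutant on array 1, and 8.51 and 10.96 on array 2. Both mutant values lay above both wild-type values. The log2 ratios were 3.47 on array 1 and 2.45 on array 2, with a mean of 2.96 ± 0.72 (SD, n = 2), a fitted fold of 7.78 and a 95% interval of 5.25 to 11.5. Background-subtracted wild-type signals were 563 and 21.8, under the background limit on both arrays, so the wild-type level is only a bound. Set against the lowest normalised signal of a feature well above background, the mutant was at least 3.16-fold higher. That bound is under the fold of per1 given below, so the order of these members is not settled. The spots of this feature differed more than its arrays did. They gave 2.58 and 4.36 on array 1 and 1.82 and 3.07 on array 2, all on the higher side. All of its spots carried quality code 2, called the dim code here, in at least 1 channel on both arrays.

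The 3 features with fitted log ratios nearest to those of SPBPB2B2.01, by Euclidean distance over the 2 arrays among 4807 other features, were SPCC794.04c, isp3 and mug114, with means of 2.88, 2.68 and 2.67. Since the wild-type level of SPBPB2B2.01 is only a bound, this likeness describes the fitted values and sets no order of closeness.

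The gene per1 encodes a plasma membrane amino acid permease whose expression is known in fission yeast to depend on the nitrogen supply. In the wild type the normalised signal of per1 was 12.19 and 12.37 on arrays 1 and 2, and in the mutant it was 13.96 and 14.004. The strains did not overlap, and all values were well above background. Arrays 1 and 2 gave log2 ratios of 1.77 and 1.64, with a mean of 1.70 ± 0.10 (SD, n = 2) and a fold of 3.26 (95% interval 2.40 to 4.43). The spots gave 1.86 and 1.69 on array 1 and 1.33 and 1.94 on array 2. Of the 4 features, per1 had the smallest spread between arrays.

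The gene put4 takes its name from the proline permease of budding yeast. The normalised signals of put4 were 10.44 (array 1) and 10.64 (array 2) in the wild type, and 11.92 and 11.53 in the mutant. Both mutant values lay above both wild-type values, with all 4 well above background. Its log2 ratios were 1.48 and 0.89, with a mean of 1.18 ± 0.41 (SD, n = 2) and a fold of 2.27 (95% interval 1.62 to 3.18). Its spots lay at 1.60 and 1.35 on array 1 and at 0.75 and 1.03 on array 2, so every spot of array 1 exceeded every spot of array 2.

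The gene isp5 was isolated among genes induced during sexual differentiation and encodes a permease of the same family. Wild-type signals of isp5 were 9.97 on array 1 and 9.74 on array 2, against mutant signals of 11.29 and 10.44. The strains did not overlap. Log2 ratios of 1.31 and 0.70 on the arrays, folds of 2.48 and 1.62, gave a mean of 1.01 ± 0.43 (SD, n = 2), with a 95% interval of 1.43-fold to 2.82-fold. On neither array did both wild-type spots exceed the background limit, so the level of the wild type is again only a bound. No smallest fold is given for isp5, since the fold of array 2 and the lower end of the interval lie under the 1.82-fold that a wild type at the background limit would give. The spots of array 1 were close, at 1.45 and 1.17, whereas those of array 2 gave -0.01 and 1.40. The wild-type signals behind the latter pair were 934 and 94.0, and the mutant signals were 1407 and 1471. The ratio of -0.01 thus came from the spot with the brighter wild-type signal. Leaving out the spots with the dim code leaves a single spot of isp5 on array 1 and both on array 2. The spot with the wild-type signal of 94.0 does not carry that code and stayed in. With the loess curve fitted anew, isp5 then stood at 1.18 on array 1 and -0.28 on array 2. The arrays then had opposite signs, with a mean of 0.45 ± 1.04 (SD, n = 2), and isp5 was not called.

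**Figure D2:**
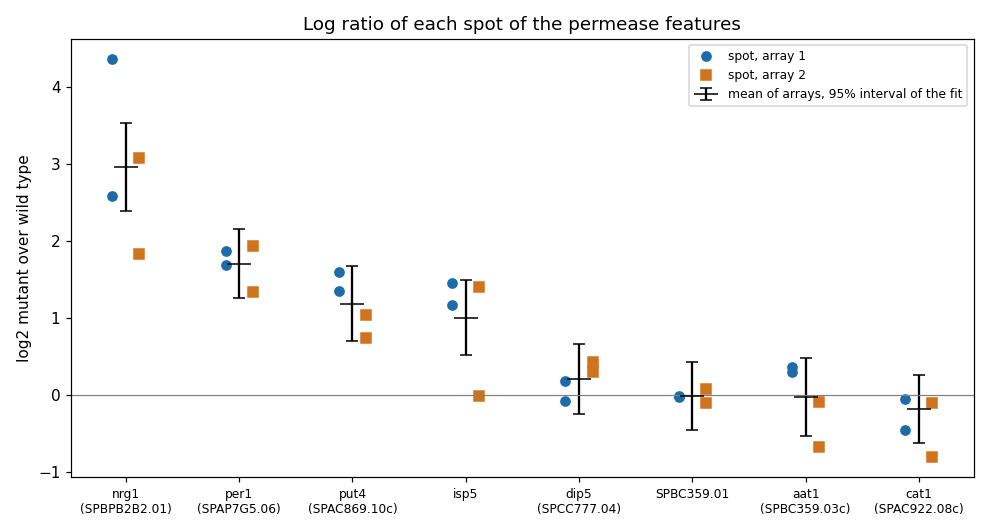
Log2 mutant over wild type (vertical axis) of each spot, with circles for array 1, squares for array 2 and a bar for the mean of the arrays with the 95% interval of the fit. The intervals of SPBPB2B2.01, per1, put4 and isp5 lie above 0, and 1 spot of isp5 on array 2 lies at -0.01.

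The other members were near 0 or dim. The gene aat1 encodes an amino acid transporter of the plasma membrane. On array 1 aat1 stood at 12.99 in the wild type and 13.32 in the mutant, and on array 2 at 13.20 and 12.82, so the strains overlapped. Its log ratios on the log2 scale were 0.33 and -0.38, of opposite sign, with a mean of -0.03 ± 0.50 (SD, n = 2). The 95% interval of -0.53 to 0.48 leaves room for changes in either direction.

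SPBC359.01 lies beside aat1 on chromosome II, with alr2 between them. This gene stood at 12.13 (wild type) and 12.11 (mutant) on array 1, and at 11.86 and 11.85 on array 2. The strains were almost the same on each array. The mean log2 ratio was -0.01 ± 0.01 (SD, n = 2), with a 95% interval of -0.46 to 0.43, and the closeness of the arrays is not a measure of its error.

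SPCC777.04 is named dip5, after the dicarboxylic amino acid permease of budding yeast. Neither strain passed the background limit on array 1 or on array 2, so no fold is given. The wild type of dip5 stood at 8.96 and 9.61 on the arrays and the mutant at 9.01 and 9.97. Both log2 ratios were small, 0.06 and 0.36, with a mean of 0.21 ± 0.22 (SD, n = 2). A change of this gene was not detectable at this signal.

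The gene cat1 encodes a permease for basic amino acids and lies next to put4 on chromosome I. It was measured under the name SPAC922.08c and was not among the members. For cat1 the wild-type signals were 12.29 (array 1) and 12.20 (array 2) and the mutant signals 12.04 and 12.10. Every wild-type value was above every mutant value, all well above background. Log2 ratios were -0.25 and -0.11, with a mean of -0.18 ± 0.10 (SD, n = 2), a 95% interval of -0.62 to 0.27 and limma adjusted p = 0.739. On array 2 this rests on 1 spot, since the other carried the code of bright spots.

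**Figure D3:**
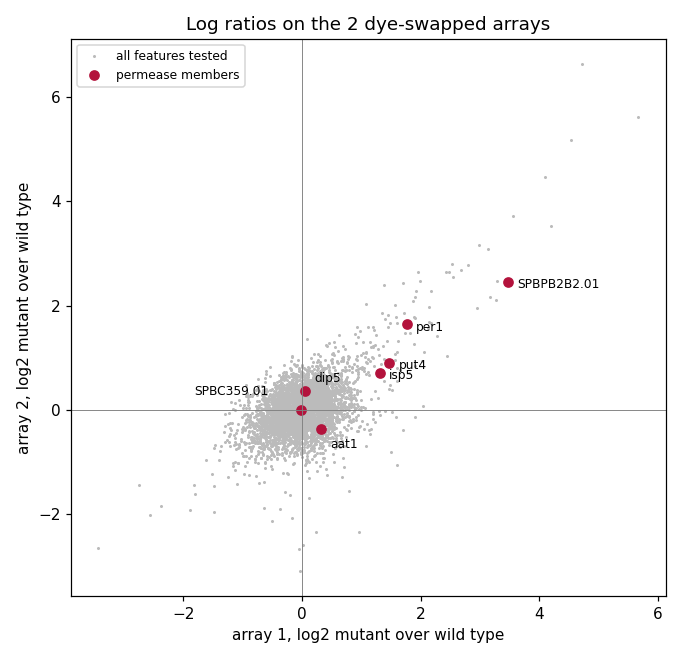
Log2 mutant over wild type on array 1 (horizontal axis) and array 2 (vertical axis), with all 4808 features in grey and the 7 permease members in red. SPBPB2B2.01, per1, put4 and isp5 lie in the upper right, and the 3 other members lie within the dense centre.

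The calls depended on the processing. So did the prior degrees of freedom that limma estimated from all features. They were 9.12 in the main setting and 2.73 with the deposited values without spots of code 3. They were infinite in 4 settings (median centring, no background correction, dim-coded spots left out, dim features left out). With 1 residual degree of freedom, the counts of calls are read beside that estimate. The number of members called was 1 with median centring in place of loess, where 0.79% of all features were called. It was 2 with plain background subtraction (1.25% of all features) and 2 with the authors' deposited log ratios (1.07% of all features). Without spots coded dim it was also 2, where 12% of the 2332 features with a value were called. SPBPB2B2.01 and dip5 had no value in that setting. In 6 further settings all 4 kept the call. These were print-tip loess (8.11% of all features called), no background correction (7.11%), a normexp offset of 0 (2.87%) and mean signals (4.83%). The others were spots of code 3 kept (4.69%) and dim features left out (9.81% of the 3037 features kept). With the deposited values and no spots of code 3, 0 members and 0% of all features were called by limma. In that setting 4 members and 591 features had an unadjusted p below 0.05.

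**Figure D4:**
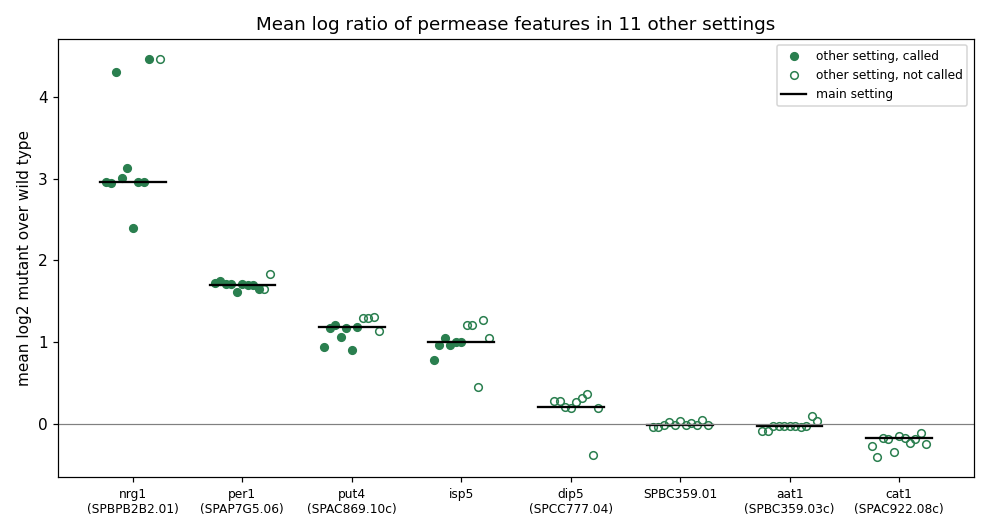
Mean log2 mutant over wild type (vertical axis) of each permease feature in up to 11 other settings, with filled circles where it was called, open circles where it was not and a line for the main setting. The means of SPBPB2B2.01 run from 2.40 to 4.47, those of per1 from 1.61 to 1.83, those of put4 from 0.91 to 1.31 and those of isp5 from 0.45 to 1.27.

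The mean kept its direction for SPBPB2B2.01, per1, put4 and isp5 in each of these settings that gave a value. SPBPB2B2.01 had none without dim-coded spots, where the arrays of isp5 had opposite signs. The fitted mean of SPBPB2B2.01 moved most, from 2.40 with mean signals to 4.47 with the authors' deposited log ratios. The per1 fold was the steadiest, and its means over 11 settings stayed between 1.61 and 1.83.

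Genes beside the permease genes were read to see whether whole stretches of chromosome were higher. The 7 members lie on all 3 chromosomes, with 3 on chromosome I, 3 on chromosome II and 1 on chromosome III. For each member the 2 nearest measured genes on each side were taken, in the order of the gene table, which gave 25 genes that are not members. Of these 25, limma called 0, while 3.47% of all features were called. An unadjusted p below 0.05 was found for 5 of the 25 (20%), against 16.2% of all features. Their median was 0.09 and they ranged from -0.64 to 0.97. Beside SPBPB2B2.01, fub2 stood at -0.21 ± 0.18 and say1 at 0.08 ± 0.13. Beside put4, cat1 is given above and SPAC869.09 stood at 0.02 ± 0.27. Beside isp5, SPAC1039.08 stood at 0.71 on array 1 and -0.71 on array 2 and mmf2 at 0.54 ± 0.14, neither of them above the background limit in the mutant. Beside per1, the ribosomal protein gene rpl1002 stood at 0.15 ± 0.50, and lys1, of lysine synthesis, at -0.64 ± 0.09 (adjusted p = 0.134). The highest fitted mean of a neighbour was that of abc3, the second gene after aat1, at 0.97 ± 0.58 (adjusted p = 0.0551). The wild type of abc3 missed the background limit on both arrays and the mutant passed it on 1, so this value carries the same limit. The 4 members that were called had no called gene among these nearest neighbours. With 3.47% of all features called, 0 calls in so few genes does not set these neighbours apart. Several neighbours were under the background limit in both strains on both arrays: mmf2, gto1, atd2, SPAC869.09, alr2, pfl7 and SPCC777.03c. For these genes the lack of a call does not show that the level was unchanged.

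**Figure D5:**
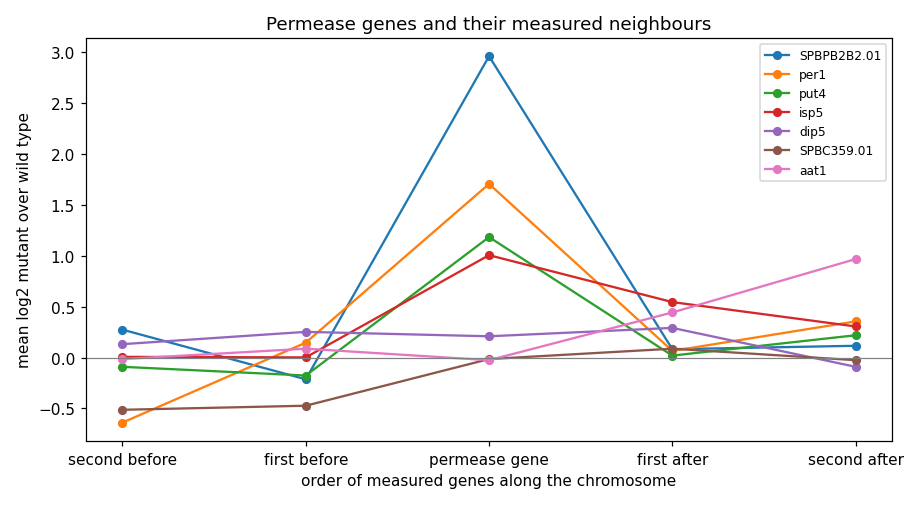
Mean log2 mutant over wild type (vertical axis) of each member and of the 2 nearest measured genes on each side (horizontal axis, order along the chromosome without distances). The peaks of SPBPB2B2.01, per1, put4 and isp5 lie at the permease gene, and the neighbours range from -0.64 to 0.97.

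Other transporters of amino acids and related compounds were read from a list of 24 names, of which 6 had no feature. Limma called 0 of the 18 features, against 3.47% of all features. Of the 18, 4 passed the background limit in neither strain on either array, so a change of those was not detectable. An unadjusted p below 0.05 was found for 3 of the 18 (16.7%), against 16.2% of all features. Their median was 0.16, against 0.01 over all features. The gene table names 4 of the 18 as other genes (abp2, vcx1, vhc1 and ape4), and without them 14 features had a median of 0.15. Of these 14, 8 were above 0 on both arrays, against 30.1% of all features. The highest was thi9, which encodes a thiamine transporter of the same protein family, at 0.95 on array 1 and 0.69 on array 2 (mean 0.82 ± 0.19, limma adjusted p = 0.0568). In 6 of 11 other settings thi9 was called, the same number as for isp5. The lowest was abp2, at -0.69 ± 0.07 (adjusted p = 0.104), which is one of the 4. SPAC1039.01 stood at 0.30 on array 1 and 0.29 on array 2, and its interval reached below 0 with an adjusted p of 0.528. The vacuolar transporter gene fnx2 gave 1.52 and -0.05 and was dim in both strains.

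Among genes of nitrogen uptake and nitrogen starvation, 5 of 23 tested features rose, 1 fell and 17 did not pass, against 3.47% called over all features. This list, like the others here, was chosen with earlier results of these data known, so its share only describes it. Their median was 0.10. The oligopeptide transporter gene isp4, named from the same screen as isp5, stood at 1.88 on array 1 and 1.78 on array 2 (1.83 ± 0.07, limma adjusted p = 0.000472). The wild-type signal of isp4 missed the background limit on both arrays, and the mutant was at least 2.24-fold higher. The vacuolar protease gene isp6 rose 2.45-fold (1.29 ± 0.10, adjusted p = 0.00501).

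The glutamate dehydrogenase genes moved in opposite directions. The gene gdh1, for the NADP-dependent enzyme that fixes ammonium, rose 5.80-fold (2.54 ± 0.14, limma adjusted p = 5.07e-05). The gene gdh2, for the NAD-dependent enzyme, was 2.16-fold lower (-1.11 ± 0.19, adjusted p = 0.0133). The sexual differentiation genes mei2 and ste11, which are induced on nitrogen starvation, stood at 2.79 ± 0.01 and 0.94 ± 0.04 (adjusted p = 3e-05 and 0.0299). The 3 ammonium transporter genes did not pass, with amt1 at 0.10, amt2 at -0.40 and amt3 at 0.07. Neither strain passed the background limit for amt1 on either array, so a change of amt1 was not detectable.

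Genes known to control permease traffic or expression made up a list of 34 tested features. Of these, 1 rose and 1 fell (5.88%), against 3.47% of all features, with a median of 0.06. The one that rose was psk1, which encodes a kinase of ribosomal protein S6 downstream of the TOR pathway, at 0.90 ± 0.13 (limma adjusted p = 0.039). The one that fell was the tup1 feature given above, whose name is that of the corepressor family in the strain label. It is therefore no separate result about these regulators, and psk1 was the only other call. The arrestin-related genes any1 and any2, of permease traffic, stood at -0.23 and 0.40, and the ubiquitin ligase gene pub1 at 0.19. The GATA factor gene gaf1, which acts in the response to nitrogen starvation, stood at -0.03. The genes tor1 and tor2 stood at 0.34 and 0.01. The corepressor partner gene ssn6 stood at -0.19 ± 0.13 (adjusted p = 0.726). None of these named regulators other than psk1 and tup1 passed the test.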

How the data were processed

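The authors deposited linear spot intensities and local backgrounds of both channels, per the file headers, without background subtraction. No source used here names the scanner or its software. The authors also deposited log10 ratios normalised by Lowess, per the series design text. Base and orientation were read from the values, with r = 0.98 over 8057 spots of array 1 and 0.93 over 8398 of array 2 against the normalised ratios of first over second channel, and slopes of 1.08 and 1.17. The deposited log10 values had column medians of -0.01 and 0.02, and values at a floor of -2 (159 and 108) were left out.

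Each array held 11520 spots, of which 1558 were control or unnamed. The ASM294v3 gene table supplied names, with 3467 features found by systematic name, 944 by symbol and 379 by synonym, while 161 kept the array's name. The table was used for names, chromosomes and gene order.

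Background correction of median signals used normexp with an offset of 50. A single loess curve was then fitted to each array, with controls and spots of quality code 3 at weight 0. Code 2 is called the dim code here. No source used here explains the codes, and the signals of single spots do not always follow them. Code 3 spots were then left out and each feature's remaining spots averaged. The 4808 features with a value on both arrays were fitted with limma (version 3.58.1, R 4.3.3) by lmFit and eBayes, adjusted by Benjamini-Hochberg at a threshold of 0.05. With 1 residual degree of freedom, 9.12 of 10.1 degrees of freedom came from the prior, so errors rest mostly on spread pooled over features, and this prior differed between settings. Strain signals came from Aquantile normalisation of the same values. The number of arrays limits the precision. The test was checked on simulated data.

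The members, lists and settings were chosen with earlier results of these data known. Named genes were all members, the called genes and the highest and lowest of each list, called neighbours, the 3 features nearest to the highest member, and the tup11, tup1 and ssn6 features; fnx2, SPAC1039.01, the ammonium transporter genes, the regulator genes that did not pass, the named neighbours and cat1 were added after their values were seen. The planned selection of transporters by product text was not run, nor were protein and promoter comparisons, since no table used here holds them.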

Additional observations from a re-analysis of the deposited data

How the results depend on the processing

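Counts are over all features tested unless stated. The 167 calls became 390 with print-tip loess, 38 with median centring, 60 with plain background subtraction, 341 without background correction, 280 without spots coded dim, 298 without dim features and 53 with the deposited values. Without spots of code 3, an alternative chosen after seeing the data, the deposited values gave 0 calls for all features, members and each list by limma. The unadjusted counts were 591, 4, 8 (nitrogen list) and 2 (regulators). Called members were 1 with median centring and 2 with plain subtraction, without dim-coded spots and with the deposited values. Calls in the transporter list became 2 with print-tip loess, without background correction, with spots of code 3 kept and without dim-coded spots. They became 1 with mean signals and without dim features. Those in the nitrogen list became 2 with median centring and 3 with plain subtraction and with the deposited values, and regulators 1 with median centring, plain subtraction, a normexp offset of 0 and the deposited values.

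Log ratios that lost the call were, for isp5, 1.05 (median centring), 1.27 (plain subtraction), 0.45 (no dim-coded spots) and 1.21 (deposited values, either version); for put4, 1.14, 1.31 and 1.296 with median centring, plain subtraction and either deposited version; for per1, 1.83 with median centring and 1.65 with the deposited values without bright-coded spots; and for SPBPB2B2.01 (nrg1), 4.47 with the latter. The sign turned for aat1 (0.041 with print-tip loess, 0.095 with median centring), SPBC359.01 (0.045 with median centring, 0.014 without background correction, 0.031 with mean signals and 0.029 without dim-coded spots) and dip5 (-0.38 with median centring), none of them called. The causes were not tested. Of 118 values of 11 other named genes, 87 kept direction and side of the threshold, 22 lost the call, 9 gained it and 0 turned. With the mean of a feature's spots set against the background limit, also chosen after seeing the data, the wild type of isp5 passed on 2 arrays and the bound of SPBPB2B2.01 was 7.78. SPBPB2B2.01 had no value without dim-coded spots. With 1 array left out no test is possible, and the values are those given per array. The fit of within-array log ratios is itself the paired analysis, and no further replicate block was fitted, since each array gives 1 ratio per feature.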
